A study of Arabidopsis thaliana with 12 samples.

Results

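The members are 35 nuclear genes of the photosynthetic electron transport chain, named by locus among the 33602 genes in the deposited tables. They hold 13 genes of photosystem I, 13 of photosystem II and 2 of the chloroplast ATP synthase. The other 7 are for the Rieske protein, plastocyanin, ferredoxin and ferredoxin-NADP+ reductase. The rule names loci and holds no measured value, but it was set with earlier results of these data known. RNA was sequenced from whole *Arabidopsis thaliana* seedlings, roots included, in 12 libraries from 3 independent RNA samples of each of 4 genotypes. The WT was Col-0 with no mutation, *jazQ* carries T-DNA insertions in 5 genes for JAZ repressors of jasmonate signalling (*JAZ1*, *JAZ3*, *JAZ4*, *JAZ9* and *JAZ10*), *phyB* carries the *phyB-9* null allele of the red-light receptor gene *PHYB*, and *jazQ phyB* carries all of these. All seedlings were 8 d old and had grown at 21 °C in continuous light on a medium with 0.8% sucrose, with WT and mutants on shared plates and about 200 seedlings in a library. No hormone or wound treatment was given to any group.

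In the thylakoid membrane, photosystem II takes electrons from water, and they pass through the cytochrome b6f complex and plastocyanin to photosystem I, then through ferredoxin and its reductase to NADP+. The proton gradient formed on the way drives ATP synthase. The reaction centre proteins are made in the chloroplast, whereas the genes described here are read in the nucleus and their proteins are imported. Light acting through phytochromes is known to raise such genes, and PIF transcription factors, which phyB holds back, are known to repress them.

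The libraries held 12750074 to 26347184 counts, so every member was counted at high depth. *PHYB* stood at 24.2 to 28.4 TPM (transcript level scaled for length and library) in the 6 libraries with the WT allele and at 17.8 to 20.5 TPM in the 6 with *phyB-9*. In the libraries with the insertions, *JAZ1* was at 4.65 to 7.47 TPM against 26.6 to 59.95 TPM without them, and *JAZ4* at 1.95 to 3.47 against 4.77 to 6.29 TPM. Reads assigned to *JAZ3* (524 to 667 against 10.06 to 13.8 TPM) and *JAZ10* (271 to 337 against 4.23 to 5.1 TPM) were more abundant with the insertions, and those of *JAZ9* overlapped (65.5 to 89.6 against 51.2 to 93.04 TPM). A T-DNA can leave RNA from a disrupted gene, so these values do not measure a working product. Within WT, replicate 1 was the lowest library for 29 of the 35 members, and within *jazQ* and *jazQ phyB* replicate 3 was the lowest for 27 and 25 of them.

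The members' order in WT spanned a wide range of TPM. *PSBR* was highest at 5249 ± 210.3 TPM (SD, n = 3), followed by *PETE2* (2933 ± 67.4) and *PSBO1* (2814 ± 102); the libraries of the last 2 overlapped. *PETE1* was lowest at 206.1 ± 6.89 TPM, below *PSB28* (358 ± 26.6). The sum over the members was 48059.7, 52158 and 52225.7 TPM in the WT libraries and 53093.1, 54879.7 and 49394.9 TPM in those of *jazQ*. It was 35028.6, 33744.5 and 33257.4 TPM in *phyB*, and 43159.4, 45388.7 and 40167 TPM in *jazQ phyB*. The *phyB* libraries were the lowest and those of *jazQ phyB* lay between *phyB* and WT without overlap, whereas *jazQ* and WT overlapped.

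**Figure D1:**
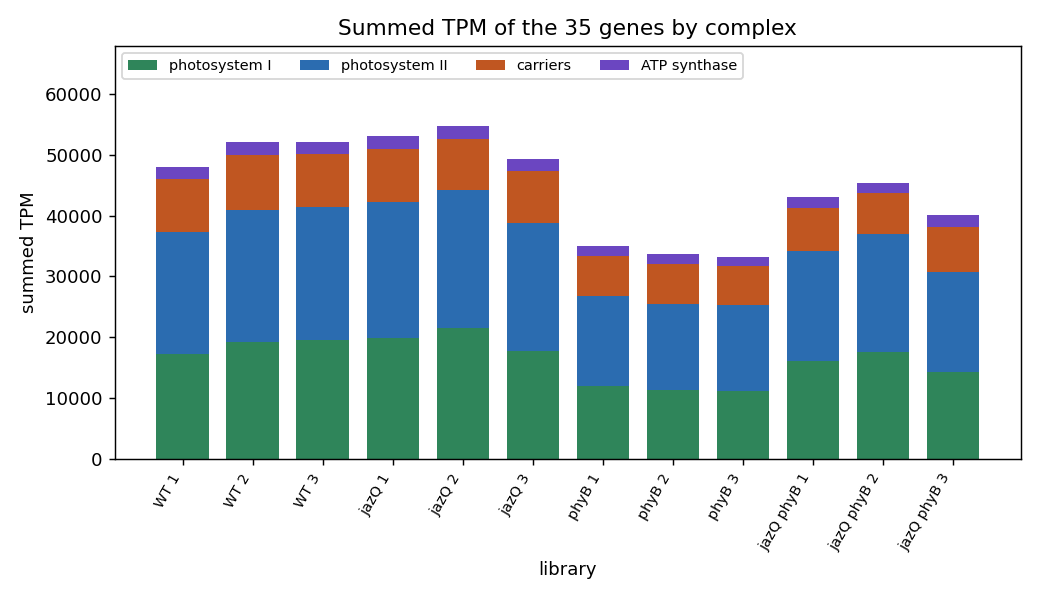
Summed TPM (vertical axis) of the 35 genes in each of the 12 libraries (horizontal axis), with 1 stacked bar for each library and 1 colour for each complex. The 3 *phyB* bars end between 33257.4 and 35028.6 TPM, below all others, and the 3 *jazQ phyB* bars between 40167 and 45388.7 TPM.

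Relative to the WT mean, the members' sum was 66.9% ± 1.8 in *phyB*, 84.4% ± 5.16 in *jazQ phyB* and 103% ± 5.51 in *jazQ* (SD, n = 3). The complexes were not lowered alike in *phyB*. There, the photosystem I genes summed to 61.6% ± 2.01 of WT and photosystem II to 67.5% ± 1.91. The carriers summed to 73.7% ± 1.08 and the ATP synthase genes to 79.8% ± 4.4. In *jazQ phyB* the values were 85.9% ± 8.87, 84.5% ± 6.74, 80.4% ± 3.64 and 87% ± 7.03. Their spreads overlap, so no order is read from them. Each SD leaves out the spread of WT, which for photosystem I was 1276 TPM around a mean of 18636.4. These sums are descriptions and were not tested. In whole seedlings, fewer green cells and less RNA per cell cannot be told apart. The summed level of 21 root marker genes was 280.1 to 289.1 TPM in *phyB* and 267.2 to 306.7 in *jazQ phyB*. It was 209.2 to 215 in WT and 190.6 to 209.3 in *jazQ*. Against WT, *CASP1* and *CASP2* were called higher in *phyB* and 6 of the 21 in *jazQ phyB*, and none lower in either. Of all genes tested, 4.7% and 3.75% were called higher (edgeR, adjusted p below 0.01). Markers of the shoot epidermis, stomata and trichomes (10 genes) were also higher in sum. They were at 459 to 476.2 TPM in *phyB* and 428.4 to 442.4 in *jazQ phyB*, against 388.4 to 405.7 in WT. Of these 10, *PDF1* rose in *phyB* by 0.49 on the log2 scale and *FAMA* fell by 0.71. Of the 10 log2 differences in *phyB*, 6 were negative, with a median of -0.08 and a range from -1.02 to 0.49. These differences come from counts scaled to library size with TMM factors, whereas the sums are in TPM. With limma on TPM, the median of all genes tested was 0.14 to 0.15 in *phyB* against WT. The sum and the list are therefore not on the same scale, and the sum gives most weight to the genes with the highest TPM. How far either accounts for the higher sum was not tested. The part of tissue shares in the members' levels was not tested.

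Almost all of the members were lower in *phyB*. Against WT, 34 of the 35 members fell and none rose in *phyB* (adjusted p below 0.01, edgeR quasi-likelihood test), where 7.06% of the 20957 genes tested fell and 4.7% rose. All 35 members were tested. Their median log2 change was -0.80, with a range from -1.11 to -0.35, while the median of all genes tested was 0.01. The 3 *phyB* libraries were below the 3 of WT for all 35 members, a separation that 19.3% of all genes showed. *FD1*, which encodes the minor of the 2 leaf ferredoxins, was the member not called, with a log2 difference of -0.35 (SE 0.1, adjusted p = 0.0191). It was called by DESeq2 (adjusted p = 0.00377) and by edgeR with only *phyB* and WT in the fit (adjusted p = 0.00496). With limma on log2(TPM + 1) it was not called (adjusted p = 0.158).

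**Figure D2:**
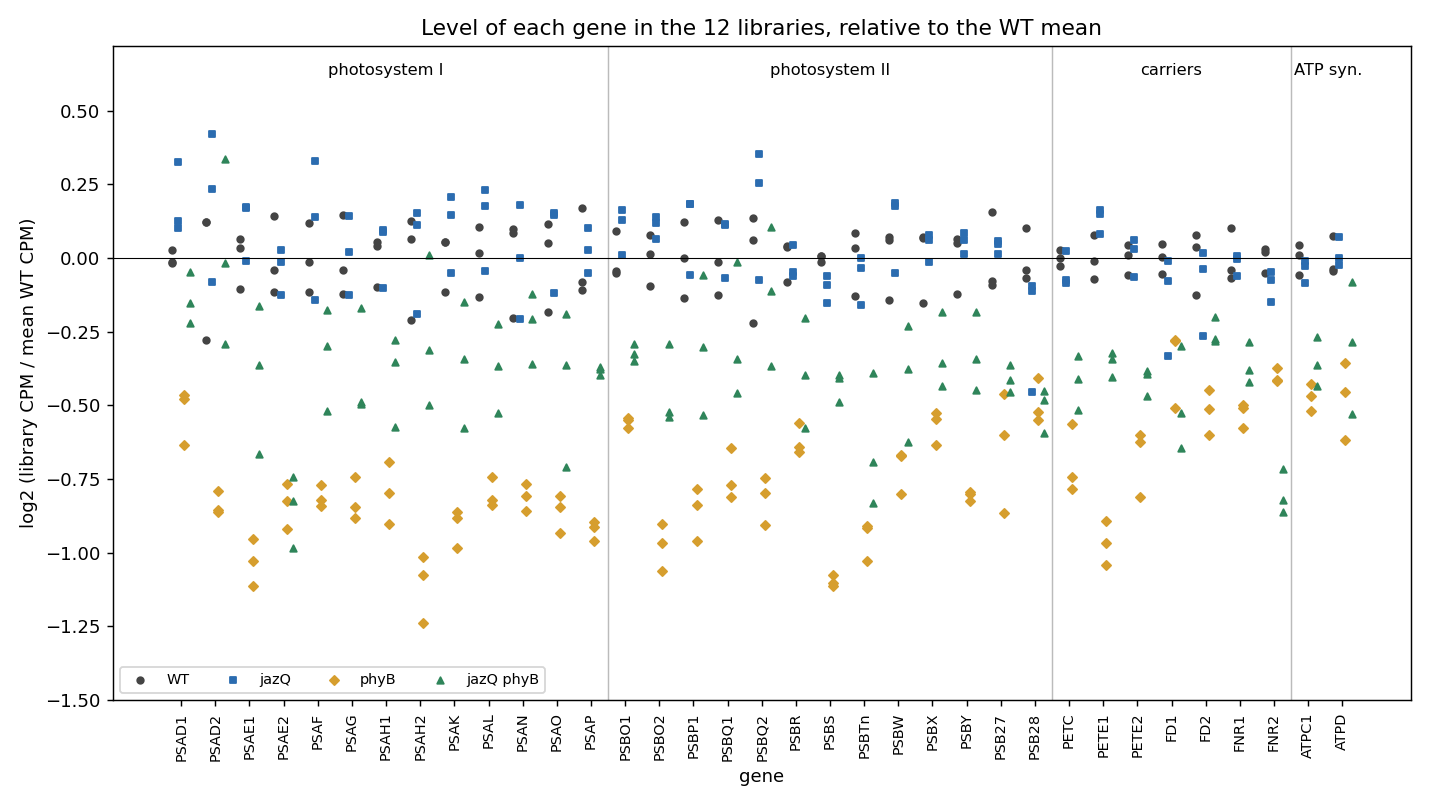
Log2 ratio of each library's CPM to the WT mean (vertical axis) for the 35 genes (horizontal axis, grouped by complex), with 1 point for each library and 1 symbol for each genotype. The *phyB* points lie below the WT points for all 35 genes, and the *jazQ phyB* points lie wholly between *phyB* and WT for 22.

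Among photosystem I genes, all 13 fell in *phyB*, with a median of -0.83. *PSAP* (AT2G46820) encodes a thylakoid protein first assigned to photosystem I and now known as the curvature protein CURT1B. In CPM, read counts scaled to library size with TMM factors, *PSAP* was at 680.3, 693 and 825 in WT, 747, 787 and 708 in *jazQ*, 394, 376 and 389 in *phyB*, with 567, 564 and 557 in *jazQ phyB*. The *phyB* and *jazQ phyB* libraries each formed a narrow group, and neither overlapped another genotype. *PSAP* fell by 0.92 on the log2 scale in *phyB* (SE 0.07, adjusted p = 2.04e-06) and by 0.38 in *jazQ phyB* against WT (SE 0.07, adjusted p = 0.00227).

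The stromal subunit PSAE, which helps ferredoxin to accept electrons, has 2 genes that parted in *jazQ phyB*. *PSAE1* (AT4G28750) was at 519.8, 572 and 584 CPM in WT, 628, 630.4 and 555 in *jazQ*, 288, 274 and 258 in *phyB*, with 434, 499 and 352 in *jazQ phyB*. Its *jazQ phyB* libraries were all above those of *phyB* and all below those of WT. *PSAE2* (AT2G20260) was at 265, 279 and 317 CPM in WT, 284, 293 and 263 in *jazQ*, 169, 162 and 152 in *phyB*, with 162, 172 and 145 in *jazQ phyB*. For this gene the *phyB* and *jazQ phyB* libraries overlapped, and both were below WT and *jazQ*. *PSAE1* fell by 1.03 in *phyB* against WT (SE 0.1, adjusted p = 1.48e-05) and rose by 0.65 in *jazQ phyB* against *phyB* (SE 0.1, adjusted p = 0.000548). *PSAE2* fell by 0.84 in *phyB* (SE 0.08, adjusted p = 9.41e-06) and by 0.85 in *jazQ phyB* against WT, and its log2 difference between *jazQ phyB* and *phyB* was -0.01 (SE 0.08, adjusted p = 0.951).

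PSAD, the stromal docking site of ferredoxin, also has 2 genes. *PSAD1* (AT4G02770) was at 701, 703 and 723 CPM in WT, 761, 889 and 774 in *jazQ*, 514, 509 and 457 in *phyB*, with 638, 687 and 609 in *jazQ phyB*. The 4 genotypes did not overlap, in the order *phyB*, *jazQ phyB*, WT and *jazQ*. *PSAD1* fell by 0.52 in *phyB* and rose by 0.39 in *jazQ phyB* against *phyB* (SE 0.07 each), whereas its differences from WT of 0.19 in *jazQ* (adjusted p = 0.195) and -0.14 in *jazQ phyB* (adjusted p = 0.227) did not pass. *PSAD2* (AT1G03130) was at 282, 372 and 372 CPM in WT, 403, 458 and 323 in *jazQ*, 198, 188 and 189 in *phyB*, with 338, 433 and 279.8 in *jazQ phyB*. Its *jazQ phyB* libraries spanned the whole WT range. *PSAD2* fell by 0.83 in *phyB* and rose by 0.87 in *jazQ phyB* against *phyB* (SE 0.15 each).

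PSAH, with PSAL and PSAO, forms the side of photosystem I where antenna protein docks during state transitions. *PSAH2* (AT1G52230) was at 629, 794 and 762 CPM in WT, 788, 809 and 639 in *jazQ*, 361, 346 and 308 in *phyB*, with 586, 733 and 516 in *jazQ phyB*. The *phyB* libraries stood apart, while *jazQ phyB* overlapped WT. The fall of 1.11 in *phyB* (SE 0.13, adjusted p = 4.71e-05) was the largest of the 35, and *PSAH2* rose by 0.85 in *jazQ phyB* against *phyB* (SE 0.13). *PSAH1* (AT3G16140) was at 471, 524 and 519 CPM in WT, 539, 537 and 471 in *jazQ*, 312, 291 and 269.8 in *phyB*, with 395, 417 and 339.6 in *jazQ phyB*. Here *jazQ phyB* lay between *phyB* and WT, with a fall of 0.40 against WT that passed (SE 0.09, adjusted p = 0.00515), which for *PSAH2* did not (-0.25, SE 0.13, adjusted p = 0.2). *PSAL* (AT4G12800) was at 1529, 1695 and 1801 CPM in WT, 1893, 1965 and 1626 in *jazQ*, 1001, 947 and 936 in *phyB*, with 1299, 1435 and 1163 in *jazQ phyB*. The last of these lay between *phyB* and WT. *PSAL* fell by 0.80 in *phyB* and rose by 0.43 in *jazQ phyB* against *phyB* (SE 0.09 each). *PSAO* (AT1G08380) fell by 0.86 in *phyB* (SE 0.12), from 1025 to 1261 CPM in WT to 608 to 665, and its difference of 0.46 between *jazQ phyB* (711 to 1019 CPM) and *phyB* did not pass (adjusted p = 0.0132).

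PSAF and PSAN face the thylakoid lumen and take part in the docking of plastocyanin. *PSAF* (AT1G31330) was at 1277, 1369 and 1501 CPM in WT, 1521, 1735 and 1251 in *jazQ*, 783, 771 and 809 in *phyB*, with 1223, 1123 and 964 in *jazQ phyB*. *PSAN* (AT5G64040) was at 914, 1128 and 1117 CPM in WT, 1054, 1194 and 912 in *jazQ*, 618, 581 and 601 in *phyB*, with 913, 968 and 821 in *jazQ phyB*. Both genes had well separated *phyB* libraries, and only for *PSAN* did *jazQ phyB* reach into the WT range. Both fell by 0.81 in *phyB* (SE 0.11 and 0.1). In *jazQ phyB* against *phyB*, *PSAF* rose by 0.49 (SE 0.11) and *PSAN* by 0.59 (SE 0.1).

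PSAG and PSAK are related membrane subunits at the edges of the photosystem I core. *PSAG* (AT1G55670) was at 1100.0, 1165 and 1326 CPM in WT, 1215, 1322 and 1098 in *jazQ*, 715, 649 and 666 in *phyB*, with 854, 1063 and 848 in *jazQ phyB*. *PSAK* (AT1G30380) was at 795, 895 and 895 CPM in WT, 995, 954 and 831 in *jazQ*, 468, 435 and 474 in *phyB*, with 680.0, 776 and 577 in *jazQ phyB*. For both genes *jazQ phyB* lay between *phyB* and WT without overlap. *PSAG* fell by 0.82 and *PSAK* by 0.91 in *phyB*, and they rose by 0.45 and 0.56 in *jazQ phyB* against *phyB* (SE 0.1 each).

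Of the photosystem II genes, all 13 fell in *phyB*, with a median of -0.74. *PSBS* (AT1G44575) encodes the protein that senses lumen acidity and switches on the dissipation of excess light as heat. It was at 1139, 1154 and 1156 CPM in WT, 1101, 1034 and 1079 in *jazQ*, 545, 532 and 535 in *phyB*, with 867, 873 and 820.1 in *jazQ phyB*. The 4 genotypes did not overlap, and the libraries of each lay close together. *PSBS* fell by 1.10 in *phyB* (SE 0.05, adjusted p = 3.08e-08), so that its level fell by 53.3%, and rose by 0.67 in *jazQ phyB* against *phyB* (SE 0.05, adjusted p = 1.81e-06). Its difference of -0.10 between *jazQ* and WT did not pass (SE 0.05, adjusted p = 0.36).

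The water-splitting centre of photosystem II is shielded on the lumenal side by PSBO, PSBP and PSBQ. *PSBO1* (AT5G66570), the main gene for PSBO, was at 2590.0, 2601 and 2857 CPM in WT, 2935, 3006 and 2701 in *jazQ*, 1842, 1833 and 1797 in *phyB*, with 2140.0, 2191 and 2103 in *jazQ phyB*. *PSBO2* (AT3G50820) was at 692, 746 and 780.5 CPM in WT, 815, 804 and 774 in *jazQ*, 395, 354 and 378 in *phyB*, with 604, 515 and 509 in *jazQ phyB*. In both genes the *jazQ phyB* libraries lay between those of *phyB* and WT, and *jazQ* overlapped WT. *PSBO2* fell by 0.98 in *phyB* (SE 0.08, adjusted p = 1.86e-06) and *PSBO1* by 0.56 (SE 0.06, adjusted p = 4.03e-05). In *jazQ phyB* against *phyB*, *PSBO2* rose by 0.53 (SE 0.08, adjusted p = 0.000228), and the difference of *PSBO1*, 0.23, did not pass (SE 0.06, adjusted p = 0.0176).

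*PSBP1* (AT1G06680) was at 1786, 1961 and 2133 CPM in WT, 2227, 2224 and 1884 in *jazQ*, 1138, 1008 and 1096 in *phyB*, with 1591, 1881 and 1354 in *jazQ phyB*. *PSBQ1* (AT4G21280) was at 721, 781 and 861 CPM in WT, 851, 853 and 752 in *jazQ*, 504, 462 and 448 in *phyB*, with 622, 781 and 573 in *jazQ phyB*. *PSBQ2* (AT4G05180) was at 783, 953 and 1002 CPM in WT, 1089, 1167 and 867 in *jazQ*, 525, 544 and 487 in *phyB*, with 844, 981 and 708 in *jazQ phyB*. In all of these, *phyB* stood below every other library, and *jazQ phyB* replicate 2 lay within the WT range. The falls in *phyB* were 0.86 (SE 0.11) for *PSBP1*, 0.74 (SE 0.1) for *PSBQ1* and 0.81 (SE 0.13) for *PSBQ2*. In *jazQ phyB* against *phyB* they rose by 0.57, 0.48 and 0.70, and against WT none of the 3 passed (adjusted p = 0.0899, 0.104 and 0.61).

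*PSBR* (AT1G79040), whose product supports binding of the oxygen-evolving proteins, was at 2674, 2905 and 2916 CPM in WT, 2919, 2739 and 2716 in *jazQ*, 1921, 1817 and 1795 in *phyB*, with 2151, 2458 and 1900.0 in *jazQ phyB*. *PSBY* (AT1G67740), a small membrane subunit, was at 470.2, 529.7 and 535 CPM in WT, 533, 543 and 517 in *jazQ*, 295, 294 and 289 in *phyB*, with 451, 404 and 375 in *jazQ phyB*. The *phyB* and *jazQ phyB* libraries overlapped for *PSBR* and were apart for *PSBY*. *PSBY* fell by 0.81 in *phyB* (SE 0.07, adjusted p = 5.28e-06) and rose by 0.49 in *jazQ phyB* against *phyB* (SE 0.07, adjusted p = 0.000313). *PSBR* fell by 0.62 in *phyB* (SE 0.08), and its difference between *jazQ phyB* and *phyB*, 0.23, did not pass (adjusted p = 0.0601). The remaining 5 photosystem II genes were *PSBTn* (AT3G21055, a small lumenal subunit), *PSBW* (AT2G30570, which stabilizes the supercomplex with the antenna), *PSBX* (AT2G06520, a small membrane subunit), *PSB27* (AT1G03600, active in assembly and repair) and *PSB28* (AT4G28660, an assembly factor known from cyanobacteria). They fell in *phyB* by 0.95, 0.71, 0.57, 0.63 and 0.49. None of the 5 passed between *jazQ phyB* and *phyB*, where their log2 differences were 0.32, 0.31, 0.25, 0.23 and -0.02. *PSB28* was the lowest photosystem II gene in TPM, and its *phyB* (150.1 to 166 CPM) and *jazQ phyB* (145 to 160.4 CPM) libraries overlapped.

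Among the carriers, 6 of 7 fell in *phyB*, with a median of -0.53. *PETC* (AT4G03280) encodes the Rieske iron-sulphur protein, the nuclear-encoded redox subunit of cytochrome b6f. It was at 1436, 1407 and 1460.0 CPM in WT, 1457, 1354 and 1363 in *jazQ*, 857, 832 and 969.5 in *phyB*, with 1079, 1004 and 1139 in *jazQ phyB*. The order was the same as for most photosystem genes, with *jazQ phyB* between *phyB* and WT. *PETC* fell by 0.69 in *phyB* (SE 0.07, adjusted p = 1.59e-05) and by 0.42 in *jazQ phyB* against WT (SE 0.07, adjusted p = 0.000984), and the difference of 0.28 between *jazQ phyB* and *phyB* did not pass (adjusted p = 0.0122).

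Plastocyanin, the copper protein that carries electrons to photosystem I, comes from *PETE1* (AT1G76100) and the more abundant *PETE2* (AT1G20340). *PETE1* was at 116, 120.4 and 128 CPM in WT, 136, 134 and 128 in *jazQ*, 65.4, 58.9 and 62 in *phyB*, with 95.5, 97.1 and 91.8 in *jazQ phyB*. *PETE2* was at 2000.0, 2096 and 2145 CPM in WT, 2169, 1990.0 and 2124 in *jazQ*, 1373, 1348 and 1185 in *phyB*, with 1595, 1503 and 1585 in *jazQ phyB*. Both followed the order *phyB*, *jazQ phyB*, WT without overlap. *PETE1* fell by 0.97 in *phyB* (SE 0.06, adjusted p = 3.19e-07) and rose by 0.61 in *jazQ phyB* against *phyB* (SE 0.06, adjusted p = 9.44e-06). *PETE2* fell by 0.68 (SE 0.07, adjusted p = 1.57e-05), and its difference of 0.26 between *jazQ phyB* and *phyB* did not pass (SE 0.07, adjusted p = 0.0142).

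Ferredoxin hands electrons from photosystem I to its reductase and other enzymes. *FD1* (AT1G10960) was at 329, 320.0 and 307 CPM in WT, 302, 254 and 317 in *jazQ*, 263, 262 and 224 in *phyB*, with 221, 204 and 259 in *jazQ phyB*. *FD2* (AT1G60950), the main leaf ferredoxin gene, was at 808, 905 and 930.3 CPM in WT, 892, 859 and 734 in *jazQ*, 617, 581 and 646 in *phyB*, with 766, 724 and 727 in *jazQ phyB*. The *FD1* libraries of *phyB* and *jazQ phyB* overlapped, whereas those of *FD2* did not. *FD2* fell by 0.52 in *phyB* (SE 0.08, adjusted p = 4e-04), and its log2 difference between *jazQ phyB* and WT was -0.25 (adjusted p = 0.039). *FD1* fell in *jazQ phyB* against WT by 0.48 (SE 0.1, adjusted p = 0.00347).

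Ferredoxin-NADP+ reductase, which makes NADPH, has 2 leaf genes, and *FNR2* was the member that departed furthest from the rest. *FNR2* (AT1G20020) was at 1192, 1183 and 1126 CPM in WT, 1130.0, 1052 and 1109 in *jazQ*, 873, 876 and 902 in *phyB*, with 641, 661 and 711 in *jazQ phyB*. Its *jazQ phyB* libraries were below those of *phyB*. *FNR1* (AT5G66190) was at 727, 714 and 802 CPM in WT, 746, 752 and 717 in *jazQ*, 529.6, 501 and 525 in *phyB*, with 559, 613 and 575 in *jazQ phyB*. Here *jazQ phyB* was above *phyB*, as in most members. *FNR2* fell by 0.40 in *phyB* against WT (SE 0.06, adjusted p = 0.000295) and by a further 0.40 in *jazQ phyB* against *phyB* (SE 0.06, adjusted p = 0.000323), so that against WT it fell by 42.5% (log2 difference -0.80, SE 0.06, adjusted p = 9.93e-07). *FNR1* fell by 0.53 in *phyB* (SE 0.06, adjusted p = 5.17e-05), and its difference of 0.17 between *jazQ phyB* and *phyB* did not pass (SE 0.06, adjusted p = 0.0702).

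Both ATP synthase genes, for the gamma and delta subunits of its catalytic head, fell in *phyB* by 0.47 (SE 0.06 for *ATPC1*, 0.1 for *ATPD*). *ATPC1* (AT4G04640) was at 996, 1069 and 1044 CPM in WT, 1017, 1028 and 978 in *jazQ*, 770.1, 723 and 749 in *phyB*, with 806, 861 and 766 in *jazQ phyB*. *ATPD* (AT4G09650) was at 869, 939 and 865 CPM in WT, 891, 937 and 876 in *jazQ*, 650.3, 697 and 581 in *phyB*, with 732, 616 and 842 in *jazQ phyB*. The *phyB* and *jazQ phyB* libraries overlapped in both, and neither gene passed between these genotypes (adjusted p = 0.187 and 0.198). The call of *ATPD* in *phyB* against WT (adjusted p = 0.00346) was lost without WT replicate 2 (adjusted p = 0.0175), *phyB* replicate 1 (0.0143) or *phyB* replicate 3 (0.0196). It was also lost with limma on log2(TPM + 1) (adjusted p = 0.0416).

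The *phyB-9* allele was then compared in the 2 JAZ backgrounds. Between *jazQ phyB* and *jazQ*, which share no library with *phyB* and WT, 21 of the 35 members fell and none rose, where 4.15% of all genes tested fell and 2.63% rose. The median was -0.39 and all 35 differences were negative. The libraries did not overlap for 27 members, against 16.1% of all genes. All 21 were among the 34 that fell in *phyB* against WT, which says little where 34 of 35 were called. The estimate was more negative in the WT background for 34 of 35 members, *FNR2* being the exception (-0.71 against -0.40). Across the members, the 2 sets of changes had a Pearson r of 0.16 and a Spearman rho of 0.3, given as a description of 35 genes measured in the same libraries. The count of 21 dropped to 8 when *jazQ* replicate 1 was left out and to 13 for *jazQ* replicate 2, and to 9 and 13 when *jazQ phyB* replicate 1 or 3 was left out. It was 8 with only the 2 genotypes in the fit.

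**Figure D3:**
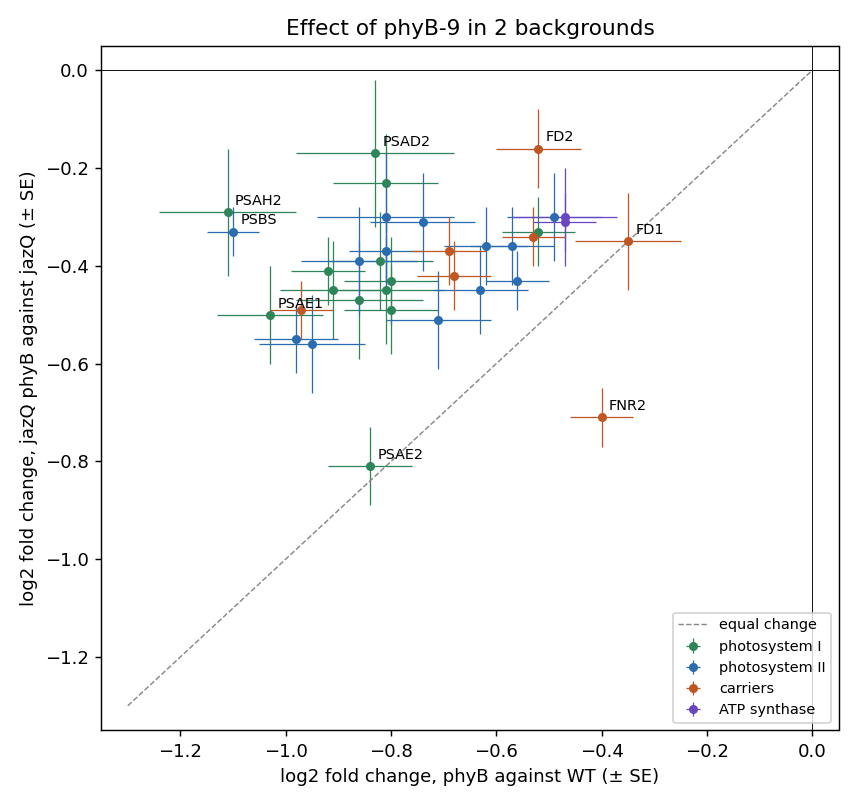
Log2 fold change with *phyB-9* in the WT background (horizontal axis) and in the *jazQ* background (vertical axis) for the 35 genes, coloured by complex, with bars of 1 SE and a dashed line of equal change. Points above the line fell less in the *jazQ* background, *PSBS* moving from -1.10 to -0.33, and *FNR2* lies below it at -0.40 and -0.71.

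The difference between the backgrounds was tested as an interaction. It passed for 3 members, all with a smaller fall in the *jazQ* background, where 1.9% of all genes passed in that direction and 1.7% in the other. These were *PSBS*, with a log2 interaction of 0.77 (SE 0.08, adjusted p = 5.01e-05), *PETE1* with 0.48 (SE 0.08, adjusted p = 0.00291) and *PSAP* with 0.51 (SE 0.1, adjusted p = 0.00674). The estimate was positive for 34 members, with a median of 0.37, and negative for *FNR2* (-0.31, SE 0.08, adjusted p = 0.0327). This sign count restates the comparison of the backgrounds above and is not a further result. DESeq2 called 9 members, which added *PSAE1*, *PSAH2*, *PSAN*, *PSBO2*, *PSBY* and, in the negative direction, *FNR2*. The count of 3 was 6 without WT replicate 1, 5 without *jazQ phyB* replicate 3, and 1 without *phyB* replicate 2 or *jazQ phyB* replicate 1. *PSBS* passed in each fit without 1 library, with estimates from 0.74 to 0.80. The call of *PSAP* was lost with limma on TPM (adjusted p = 0.0146) and without *jazQ* replicate 1 or 3, or without any single library of *phyB* or *jazQ phyB* (adjusted p = 0.0115 to 0.0248), and that of *PETE1* without *phyB* replicate 2 or *jazQ phyB* replicate 1 (adjusted p = 0.0125 and 0.011).

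The insertions were compared in the same way. Between *jazQ* and WT, 0 of the 35 members were called by edgeR or DESeq2, where edgeR called 1.54% of all genes. An unadjusted p below 0.05 was found for 3. The differences ran from -0.21 (*PSB28*) to 0.21 (*PSAD2*), with a median of 0.03, and 24 were positive and 11 negative. Between *jazQ phyB* and *phyB*, 18 members rose, where 6.01% of all genes rose, and 1 fell, where 5.76% fell. The median was 0.40. By complex, 11 of 13 photosystem I genes, 6 of 13 photosystem II genes, 1 of 7 carriers (*PETE1*) and none of the 2 ATP synthase genes rose, and *FNR2* fell. The 3 libraries of *jazQ phyB* lay above those of *phyB* for 28 members, against 20% of all genes, and below for *FNR2*, against 20.4%. Against WT, 18 members stayed lower in *jazQ phyB* and none was higher (6.02% of all genes were lower and 3.75% higher), and the WT and *jazQ phyB* libraries did not overlap for 29 (17.1% of all genes). These were 3 of 13 photosystem I genes (*PSAE2*, *PSAH1* and *PSAP*), 8 of 13 photosystem II genes, 6 of 7 carriers and *ATPC1*. The comparisons with WT share its libraries, as those with *phyB* share theirs, and are given side by side for that reason.

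**Figure D4:**
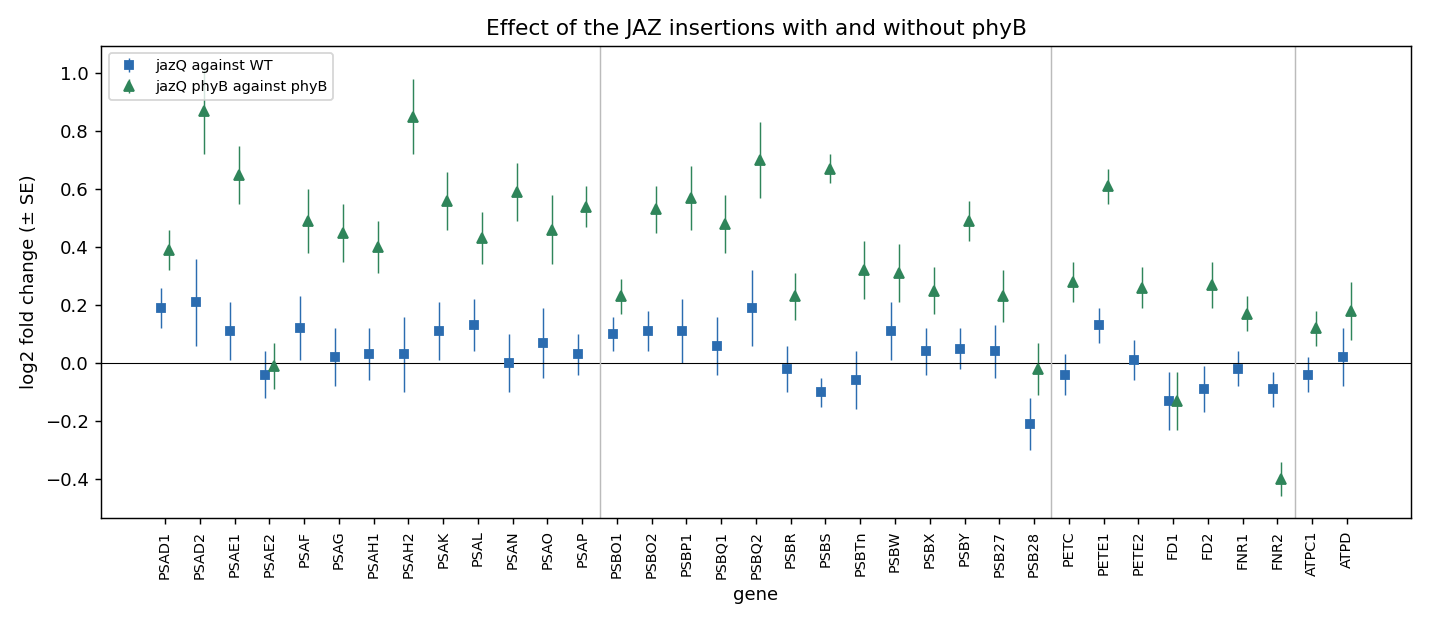
Log2 fold change with the JAZ insertions (vertical axis) for each of the 35 genes (horizontal axis, grouped by complex), with squares for *jazQ* against WT, triangles for *jazQ phyB* against *phyB*, and bars of 1 SE. The squares lie between -0.21 and 0.21, and the triangles reach 0.87 for *PSAD2* and -0.40 for *FNR2*.

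For 8 subunits encoded by a pair of genes, the share of the first-named gene in the pair's TPM was followed across libraries. No pair shares a stretch of 50 bases, the read length, in the RefSeq transcripts, so reads could be told apart. *PSAE1* made up 61.4 to 63.9% of its pair in WT, 64.6 to 65.6% in *jazQ*, 59.3 to 59.6% in *phyB* and 67.7 to 71.5% in *jazQ phyB*. *FNR1* made up 35.7 to 39.7% in WT, 37.4 to 39.7% in *jazQ*, 34.5 to 35.9% in *phyB* and 42.7 to 46.1% in *jazQ phyB*. Both shares were highest in *jazQ phyB* without overlap. *PSAH1* and *PSBO1* were highest in *phyB*, at 45.6 to 46.6% and 82.3 to 83.8%, against 39.7 to 42.8% and 77.7 to 78.9% in WT. *PETE1* was lowest in *phyB*, at 5 to 5.9% against 6.5 to 6.7% in WT. The mean shares of *PSAD1*, *PSBQ1* and *FD1* in WT were 69.1, 50 and 31.9%, and the libraries of WT and *jazQ phyB* overlapped for *PSAD1* (66.9 to 72.7% and 63 to 70%) and *FD1* (29.9 to 34.5% and 26.6 to 31.5%) but not for *PSBQ1* (48.7 to 51.6% and 46 to 48.3%).

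An exact 2-sided permutation test took the shift of the log2 ratio within each JAZ background and averaged it over the 2 backgrounds. By this average, *phyB-9* moved no pair past an adjusted p of 0.05. Shifts of opposite sign cancel in it, so the test cannot show them. The share of *PSAE1* was lower in *phyB* than in WT and higher in *jazQ phyB* than in *jazQ*, without overlap in either. Its averaged shift was 0.05 (exact permutation p = 0.565, adjusted p = 0.749). The mean shares of *PSAD1*, *PSAH1*, *PSBQ1*, *FD1* and *FNR1* also moved in opposite directions in the 2 backgrounds, with overlapping libraries in some. That of *PSAH1* was 46.2% in *phyB* against 41% in WT, and 38.7% in *jazQ phyB* against 40.9% in *jazQ*. Only the mean shares of *PSBO1* and *PETE1* moved the same way in both. The lowest p-values were for PSBO (0.28, p = 0.015, adjusted p = 0.08) and PETE (-0.18, p = 0.02, adjusted p = 0.08), over 8 pairs and 400 permutations, whose smallest possible p is 0.005. The corresponding test of the insertions within *PHYB* backgrounds was added after the values had been seen. The exact permutation test gave a higher share of *PSAE1* (0.40, p = 0.005, adjusted p = 0.02) and of *PETE1* (0.24, p = 0.005, adjusted p = 0.02). The other 6 pairs did not pass. Of these, FNR shifted by 0.32 and PSBQ by -0.18 (exact permutation p = 0.025 and 0.02, adjusted p = 0.05 each), PSAH by -0.22 and PSBO by -0.15 (adjusted p = 0.0667 each), PSAD by -0.24 (adjusted p = 0.0971) and FD by -0.22 (adjusted p = 0.135).

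**Figure D5:**
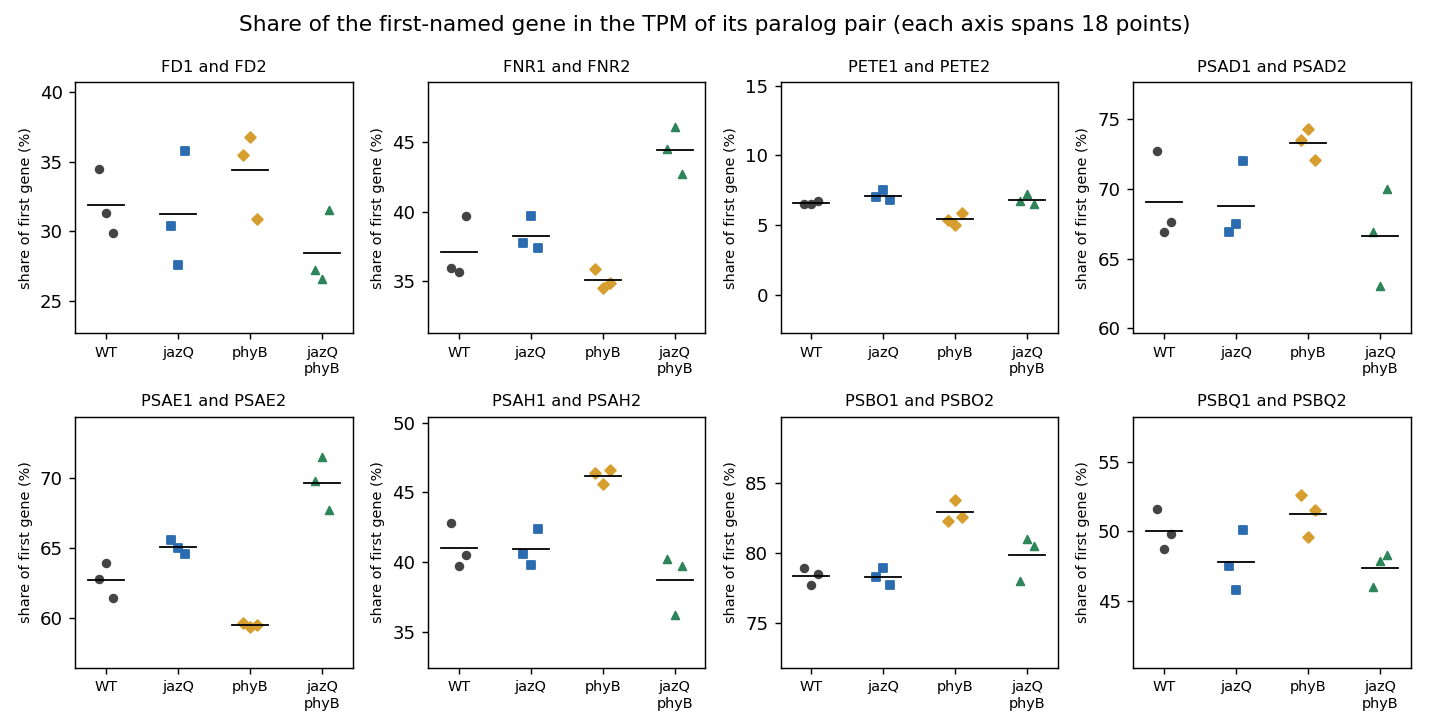
Share of the first-named gene in the summed TPM of its pair (percent, vertical axis, each panel spanning 18 points and not starting at 0) in the 3 libraries of each genotype (horizontal axis), with a line at the mean. The shares of *PSAE1* (67.7 to 71.5%) and *FNR1* (42.7 to 46.1%) are highest in *jazQ phyB*, and that of *PSAH1* (45.6 to 46.6%) in *phyB*.

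Sequence upstream of the members was read from RefSeq (TAIR10.1) because the members moved together in *phyB*, and because members that departed from the rest can be set beside others. In the 250 bases before the annotated start, on both strands, the G-box CACGTG was present in 7 of 35 members (20%) and 6.49% of 27443 genes. The PBE-box CACATG was present in 6 (17.1%, against 11.1%), the I-box GATAAG in 8 (22.9%, against 12.3%) and the GLK motif AGATTCT in 3 (8.57%, against 6.22%). G-box and PBE-box are known binding sites of PIF proteins, and a match is a description of letters only. The 7 with a G-box were *PSAE2*, *PSAH2*, *PSBQ1*, *PSBQ2*, *PSBTn*, *PSB28* and *ATPD*. In these windows, 18 of the 35 members reach into a neighbouring gene.

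The stretch of up to 120 bases before the start that holds no other annotated protein-coding gene is shown for some members. *PSAE2* and *FNR2* did not rise in *jazQ phyB* against *phyB*, and *FNR1* is shown as the partner of *FNR2*. *PSAH2* and *PSBQ2* did rise, and *PSBS* had the largest interaction called. Sequences run 5′ to 3′ on the coding strand towards the start, and capitals mark the motifs named above or their reverse complements. They lie at chr2:8736614-8736733 (+, *PSAE2*), chr1:6942505-6942624 (+, *FNR2*), chr5:26453200-26453275 (-, *FNR1*), chr1:19454766-19454797 (+, *PSAH2*), chr4:2673244-2673363 (-, *PSBQ2*) and chr1:16870101-16870220 (+, *PSBS*).
PSAE2: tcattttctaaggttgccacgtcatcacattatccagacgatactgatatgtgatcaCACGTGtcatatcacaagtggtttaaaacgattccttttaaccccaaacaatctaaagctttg
FNR2: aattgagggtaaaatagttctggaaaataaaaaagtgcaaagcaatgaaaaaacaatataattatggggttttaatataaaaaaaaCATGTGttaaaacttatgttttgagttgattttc
FNR1: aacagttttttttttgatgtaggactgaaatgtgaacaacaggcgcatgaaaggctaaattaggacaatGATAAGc
PSAH2: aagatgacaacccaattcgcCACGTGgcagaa
PSBQ2: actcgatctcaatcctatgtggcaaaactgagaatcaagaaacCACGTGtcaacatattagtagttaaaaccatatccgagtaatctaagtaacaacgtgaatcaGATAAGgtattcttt
PSBS: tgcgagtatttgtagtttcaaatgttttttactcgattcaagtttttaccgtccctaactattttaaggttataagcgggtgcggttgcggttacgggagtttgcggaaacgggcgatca
*PSAE2*, *PSAH2* and *PSBQ2* each carry a G-box in these stretches, and of these only *PSAE2* did not rise in *jazQ phyB* against *phyB*. Of the other members with a G-box, *PSBQ1* rose in this comparison, and *PSBTn*, *PSB28* and *ATPD* were not called. *FNR2* carries a PBE-box (as CATGTG) and *FNR1* an I-box next to its start. In the 250 bases before the start, a PBE-box was also present for *PSAD2*, which rose. It was present too for *PSBTn*, *PSB27*, *PSB28* and *FD1*, which were not called. No letters of the 4 motifs occur in the *PSBS* stretch.

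The rest of the light reactions were read in the same fit. Of 30 other genes of photosynthetic electron transport (minor subunits, cyclic flow, thylakoid kinases and proteases, and root-type isoforms), all were tested, 15 fell in *phyB* and none rose, with a median of -0.37 against -0.80 for the members. *PGRL1A*, which acts in cyclic electron flow around photosystem I, fell by 0.88 (SE 0.06, adjusted p = 8.3e-07). *PPL2*, listed by RefSeq as the NDH complex subunit PnsL1, fell by 0.75 (SE 0.05, adjusted p = 8.3e-07). In *jazQ phyB* against *phyB*, 6 of these 30 rose, among them *PGR5* (0.67) and *PGRL1A* (0.54), and *TAP38*, the phosphatase that ends state transitions, fell by 0.27. All 20 antenna genes fell in *phyB*, with a median of -1.11, including *LHCA4* (-1.18, SE 0.09, adjusted p = 2.13e-06) and *LHCA1* (-1.19, SE 0.1, adjusted p = 2.78e-06), and 12 rose in *jazQ phyB* against *phyB*. Of 32 subunit genes in the chloroplast genome, 27 were tested and 15 fell in *phyB*, with a median of -0.94 (*atpB* -0.68, *psaA* -1.31). Between *jazQ phyB* and *phyB*, 1 of the 27 rose, and between *jazQ* and WT 4 fell and 26 of the 27 differences were negative (median -0.48), where the members' median was 0.03. The count of 15 was 9 without *phyB* replicate 2. Chloroplast genes held 0.273 to 0.988% of counts, and 0.553 to 0.988% within WT alone, WT replicate 3 holding the most. The labels do not state whether RNA was selected by its poly(A) tail. Whether these reads follow chloroplast transcript levels as those of nuclear genes do was not tested.

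Of the 35 members, 11 overlap another annotated gene in TAIR10.1 and 10 overlap one that is in the deposited tables. For 8 of these 10 the neighbour, or 1 of the neighbours, is on the opposite strand. The neighbour's count was 0.366 to 38.8% of the member's, the highest for *FD1*, and use of strand in counting is not given in the sources used here, so reads in the shared ends are uncertain.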

How the data were processed

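RNA was sequenced from 12 libraries of whole seedlings, 3 for each of 4 genotypes, with groups taken from the sample labels. The expected counts per gene were made and deposited by the authors with RSEM 1.2.11 on TAIR10 gene models, and the TPM deposited beside them are the same estimates scaled for transcript length and library. There were 0 value columns of other samples and 0 rows without a gene.

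Expected counts were rounded and tested with edgeR 4.0.16 (R 4.3.3; TMM, filterByExpr with a minimum count of 10, quasi-likelihood fit over all 4 genotypes), which kept 20957 of 33602 genes. A call is a Benjamini-Hochberg adjusted p below 0.01 over all genes tested, and the SE is the absolute log2 fold change divided by the root of F. CPM are TMM-scaled, and TPM were used for sums, shares and levels between genes. The study's methods describe the 3 RNA samples of a genotype as biological replicates, each from its own harvest of about 200 seedlings, and p-values measure the spread between them. The edgeR test was tried on simulated counts with a change planted in the libraries with *phyB-9* only. The DESeq2 and limma tests were not tried in this way.

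The members and gene lists were chosen with earlier results of these data known. Named genes were, per complex, the 3 with the lowest adjusted p in *phyB* against WT, both genes of pairs whose calls differ, members called for the JAZ insertions or the interaction, and those with the highest and lowest TPM; from other lists, the 2 with the lowest adjusted p. Other members and the further genes of these lists named in the text were chosen after their values were seen. Alternatives were DESeq2 1.42.0, limma 3.58.1 on log2(TPM + 1) and log2(TPM + 0.1), other scalings, no filter, a threshold of 0.05, 2-genotype fits, the replicate number as a block, and leaving out each library. Sequences and loci are from RefSeq (TAIR10.1), where 32835 gene identifiers matched and all 35 members had a locus.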

Additional observations from a re-analysis of the deposited data

Results flagged for a closer look

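The effect of *phyB-9* differed between the *jazQ* and WT backgrounds for 3 members by the interaction test (edgeR, adjusted p below 0.01). The difference was 0.77 on the log2 scale for *PSBS* (adjusted p = 5.01e-05), 0.51 for *PSAP* (adjusted p = 0.00674) and 0.48 for *PETE1* (adjusted p = 0.00291), each with a smaller fall in the *jazQ* background. The estimate kept its sign for each of the 3 when any 1 library was left out, while *PSAP* then had an adjusted p of up to 0.0248 and *PETE1* of up to 0.0125. With limma on TPM, *PSAP* had an adjusted p of 0.0146.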

How the results depend on the processing

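No call of a member changed direction under the alternatives run. Between *jazQ* and WT, where no member was called, the members' median of 0.03 was -0.02 without WT replicate 1. The total of members called in *jazQ phyB* against WT was 18, and it was 11 with only the 2 genotypes in the fit, 6 with limma on either TPM scale and 12 to 21 when 1 library was left out. In *jazQ phyB* against *jazQ* the total was 21, against 8 and 4 under the same alternatives and 8 to 23 without 1 library. For the interaction (3), the counts were 9 at an adjusted p below 0.05, 9 with DESeq2 and 1 to 6 without 1 library. Leaving out 1 library gave 33 to 34 in *phyB* against WT (34) and 13 to 21 in *jazQ phyB* against *phyB* (19). With limma on either TPM scale, these 2 counts were 31 and 14. For the other electron transport genes in *jazQ phyB* against *phyB* (7), 12 passed at an adjusted p below 0.05, and 4 to 9 without 1 library. The chloroplast-encoded count (15) was 9 to 15 without 1 library and 20 at an adjusted p below 0.05. Without TMM scaling (limma on TPM), the median of all genes moved to 0.14 to 0.15 in *phyB* against WT, and the members lay 0.79 to 0.80 below it.

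Without 1 library, the shift of the pair ratio with the JAZ insertions ran from -0.25 to -0.19 for PSAH, -0.18 to -0.11 for PSBO, -0.21 to -0.15 for PSBQ, 0.29 to 0.36 for FNR, -0.29 to -0.18 for PSAD and -0.30 to -0.16 for FD, and that of PSBO with *phyB-9* from 0.25 to 0.32. The cause was not tested for any of these.

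The labels do not tie replicate numbers to plates, and the numbers were not taken as pairing the libraries: of 18 same-numbered pairs, 3 had a correlation over 0.1 (-0.212 to 0.312), although 8 of 12 libraries were most like one of their own number. With the replicate number as a block, the counts were 34 in *phyB* against WT, 0 in *jazQ* against WT, 17 in *jazQ phyB* against WT, 21 against *jazQ*, 20 against *phyB* and 3 for the interaction, where *PSAP* (adjusted p = 0.0115) was lost and *PSAH2* was called. limma on TPM also lost *PSAP* (adjusted p = 0.0146).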
